A study of Mus musculus with 16 samples.

Results

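The 11942 CpGs described here lie in CpG-dense DNA and were partly methylated in both parental cell populations of a study of how faithfully DNA methylation is passed on through clonal growth. They were chosen by their local density and by their parental levels, where the level is the percentage of reads that were methylated. A CpG was taken where the deposited number of CpGs within 100 bp was 15 or more and where each parental level was at least 10% and under 90%. CpGs with both parental levels from 40 to 60% were left out, which removed 809 dense CpGs. The members made up 6.21% of the 192356 dense CpGs and were drawn from a table of 1203687 CpGs on 16 chromosomes. Density and the parental levels are therefore a description of the choice, while the levels of the clonal lines were not used in it.

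The study established mouse embryonic fibroblasts from C57BL/6J embryos of the same parents at day 13.5 of gestation and immortalised them by serial passaging, which gave the parental populations MEF-1 and MEF-2. Single cells sorted from each parent were grown into clonal lines, 7 per family, so that the alleles of every cell in a line descend from those of 1 founder cell. Bisulfite sequencing with targeted capture (tcBS-seq) was used to count methylated and unmethylated reads at each CpG in 16 libraries, and each parent had 1 library and no replicate. No treatment was applied, and all lines carry the immortalisation and the passaging that went with it.

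CpG-dense DNA in mammals is mostly found in CpG islands, which overlap many gene promoters and are usually free of methylation. DNA methylation is copied after replication by a maintenance methyltransferase that reads the hemimethylated daughter strands, and neighbouring CpGs often share a state. Dense regions that carry methylation in fibroblasts include imprinted control regions, where the alleles from mother and father differ, promoters of germline genes, and the bodies of developmental genes.

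Sequences of 8 stretches of members are given because the results below turn on them. They are written on the + strand of GRCm38.p6 (mm10), with the CpGs that are members in capitals and all other bases in lower case, including measured or unmeasured CpGs that are not members. The first 5 are single-copy sequences in which lines or families were far apart, the Plagl1 stretch is from an imprinted promoter, and Gm13034 and Gm13136 are related repeated sequences.
Isyna1, chr8:70594637-70594799: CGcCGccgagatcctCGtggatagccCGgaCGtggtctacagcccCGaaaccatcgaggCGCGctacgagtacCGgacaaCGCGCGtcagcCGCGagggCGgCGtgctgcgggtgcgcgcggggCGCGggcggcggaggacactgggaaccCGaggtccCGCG
Proser2, chr2:6100359-6100566: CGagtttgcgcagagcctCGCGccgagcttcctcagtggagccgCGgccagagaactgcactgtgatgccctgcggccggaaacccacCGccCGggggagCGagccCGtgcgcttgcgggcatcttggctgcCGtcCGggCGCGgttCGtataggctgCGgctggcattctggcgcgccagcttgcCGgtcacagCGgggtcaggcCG
Nr2f2, chr7:70357805-70358064: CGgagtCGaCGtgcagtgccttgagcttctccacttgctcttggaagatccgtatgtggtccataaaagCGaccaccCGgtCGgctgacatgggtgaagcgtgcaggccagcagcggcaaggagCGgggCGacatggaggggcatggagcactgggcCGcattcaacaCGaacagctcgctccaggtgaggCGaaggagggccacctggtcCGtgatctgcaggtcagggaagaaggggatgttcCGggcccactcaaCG
Tfap2a, chr13:40728275-40728440: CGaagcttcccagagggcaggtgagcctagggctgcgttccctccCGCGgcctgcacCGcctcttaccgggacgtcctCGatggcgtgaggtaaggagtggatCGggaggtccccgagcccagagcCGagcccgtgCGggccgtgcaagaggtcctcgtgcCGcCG
Bhlha9, chr11:76673009-76673085: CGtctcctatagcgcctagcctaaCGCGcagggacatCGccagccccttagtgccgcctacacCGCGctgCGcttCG
Plagl1, chr10:13091040-13091104: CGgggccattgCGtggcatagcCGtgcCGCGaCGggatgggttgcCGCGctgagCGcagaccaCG
Gm13034, chr4:146067575-146067827: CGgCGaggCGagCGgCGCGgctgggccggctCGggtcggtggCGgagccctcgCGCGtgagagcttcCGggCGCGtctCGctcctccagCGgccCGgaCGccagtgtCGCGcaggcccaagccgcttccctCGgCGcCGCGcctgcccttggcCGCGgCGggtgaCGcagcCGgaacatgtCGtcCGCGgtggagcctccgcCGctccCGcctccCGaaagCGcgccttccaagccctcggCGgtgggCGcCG
Gm13136, chr4:147738522-147738780: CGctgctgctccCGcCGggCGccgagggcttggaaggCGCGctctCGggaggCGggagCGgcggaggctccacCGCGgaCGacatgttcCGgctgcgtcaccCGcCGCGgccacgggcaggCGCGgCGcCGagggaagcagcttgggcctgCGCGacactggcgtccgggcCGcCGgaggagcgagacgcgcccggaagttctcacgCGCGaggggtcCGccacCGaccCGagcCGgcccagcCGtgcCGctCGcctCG
Members were interleaved with other CpGs in most of these stretches. The Isyna1 stretch holds 30 CpGs of which 21 are members, the Tfap2a stretch 18 of which 10 are members, and in the Plagl1 stretch each of the 10 CpGs is a member.

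The libraries held between 59243669 and 90633091 calls over the table, and the median coverage of a member was 22 to 33 reads, against 28 to 42 reads at the less dense sites defined below. Of 8 promoters of mesenchymal genes, Col1a2, Fn1, Vim and Twist2 were at 3.35% or less in both parents, Col1a1 and Pdgfra at 7.45 to 16.7%, S100a4 at 40.2 and 46.7%, and Thy1 at 97.6 and 85.9%. Of 7 promoters of genes of other cell types, Krt8 (epithelium), Ptprc (blood) and Pecam1 (endothelium) stood at 67.5 to 92.6%, Cdh1 and Krt18 (epithelium) at 27.9 to 47.9%, and Epcam (epithelium) and Myod1 (muscle) at 10.4 to 16.3%, so the marker promoters did not separate by cell type. These are methylation levels and not expression. Over single chromosomes, coverage relative to the rest of the library ranged from 0.779 to 1.34. Among the MEF-1 lines, lines 1, 4 and 5 differed from each other by 13.2 to 13.9 points on average per member, less than the 14.3 to 17.2 points of the other MEF-1 pairs, and p-values that count lines as independent may be too small there.

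Members lay further from transcription starts than unmethylated dense CpGs and had a similar base composition. The mean GC content within 100 bp of a member was 64.3% and the CpG observed over expected ratio 0.862. The 148994 dense CpGs under 10% in both parents had 65.0% and 0.902, and the 5873 dense CpGs at 90% or more in both parents had 61.4% and 0.850. The median distance to the closest start of a protein-coding gene was 1399 bp for members, 155 bp for unmethylated dense CpGs and 6544 bp for methylated dense CpGs. In these respects the members lay between the unmethylated and the methylated dense CpGs.

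Of the members, 35.1% lay in promoters of protein-coding genes (from 1000 bp before to 500 bp after a transcript start), 32.8% in exons outside promoters, 8.99% in introns, 12.7% in non-coding genes only and 10.4% between genes. Among unmethylated dense CpGs 83.1% lay in promoters, and among methylated dense CpGs 46.6% lay in exons and 15.2% in promoters. Repeated sequence was more frequent among members than among unmethylated dense CpGs. Of the members, 15.9% lay in windows where over 20% of the 32-base words occur elsewhere in the genome, against 5.73% of unmethylated and 28.9% of methylated dense CpGs. At 459 members the mean coverage was above 160 reads, which is 5 times the table's median of 32 reads.

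**Figure D1:**
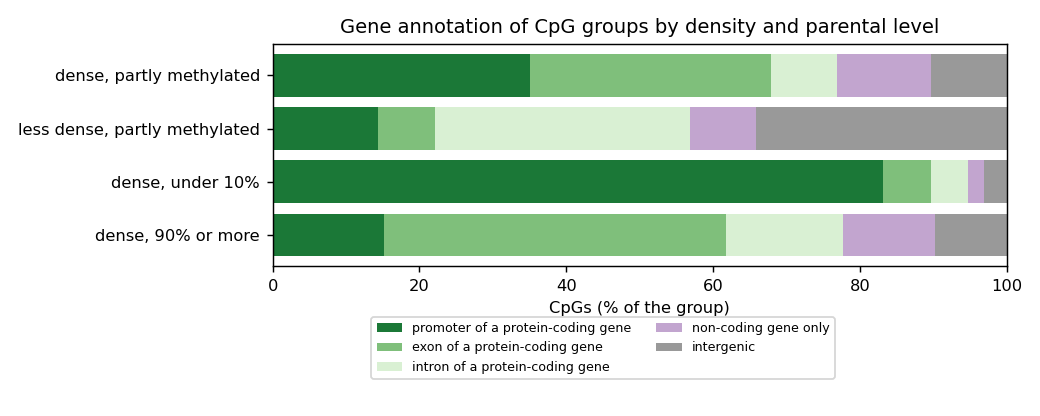
Share of CpGs, in percent of each group, that lie in each gene annotation class, for members, less dense partly methylated CpGs and dense CpGs that were low or high in both parents. Promoters hold 35.1% of members and 83.1% of unmethylated dense CpGs, and exons outside promoters hold 32.8% of members and 46.6% of methylated dense CpGs.

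Parental levels of the members were mostly low. Both parents were at 10 to 40% at 5301 members (44.4%) and both at 60 to 90% at 1299 (10.9%). Parents on opposite sides were less frequent, with 609 members at 10 to 40% in MEF-1 and 60 to 90% in MEF-2, and 777 the other way. Close to the density limit, the 2049 members with a density of 15 averaged 41.1% in the clonal lines, and the 2341 CpGs with a density of 14 and the same parental rule averaged 44.0%. At the lower limit of level, the 1913 members whose lower parent was at 10 to 12% averaged 19.5% in the clonal lines, against 17.2% for the 2222 dense CpGs just outside. At the upper limit, 311 members averaged 78.2% and 474 CpGs just outside averaged 79.3%.

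Averaged over members, all 14 clonal lines lay above their own parent, by little in MEF-1 and by more in MEF-2. The mean level was 38.7% ± 0.680 (SD, n = 7) in MEF-1 lines and 40.3% ± 1.18 (SD, n = 7) in MEF-2 lines, against 37.8% and 36.9% in the parents, whose levels the rule bounds. MEF-1 lines ranged from 37.9 to 39.7% and MEF-2 lines from 39.0 to 42.2%, so the families overlapped. The difference of the family means was -1.63 points (exact two-sided permutation test, p = 0.00699), but on chromosomes 3, 4, 6 and 9 alone it was -1.22 points (exact permutation p = 0.0793). It was -1.08 points with each run counted once (exact permutation p = 0.0478) and -2.72 points at 20 reads or more in all libraries (exact permutation p = 0.000583). Here and below, p-values between families measure the spread among clonal lines of a single culture per family, not between embryos.

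Single members stood both below and above the parental class in the lines. The rule bounded the parents and not the lines, so the shares below are a description, and the share that read sampling alone would give was not tested. Of the 7036 members that stood at 10 to 40% in the MEF-1 parent, 37.5% ± 2.51 (SD, n = 7 lines) were under 10% in a MEF-1 line, 41.6% stayed at 10 to 40%, 14.2% stood at 40 to 60%, 5.92% at 60 to 90% and 0.790% at 90% or more. The 7603 such members of MEF-2 gave 38.2% ± 3.09 under 10% and 2.18% at 90% or more. Low parental levels thus most often led to a line at or below the parent's range.

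Of the 2674 members at 60 to 90% in the MEF-1 parent, 29.9% ± 2.06 were at 90% or more in a line and 25.8% had moved down to 40 to 60%. In MEF-2, 41.2% ± 3.49 of 2615 such members were at 90% or more and 20.6% at 40 to 60%. At 40 to 60% in the own parent, 43.9% ± 2.24 of 2232 members kept that level in a MEF-1 line and 38.2% ± 2.27 of 1724 in a MEF-2 line. In MEF-2 lines more members stood at 90% or more than in MEF-1 lines from each parental level, and the MEF-2 mean in the 3 classes was 24.7, 55.0 and 76.0% where the parent had 21.4, 49.1 and 74.0%. In MEF-1 the lines had 22.0, 51.8 and 71.7% where the parent had 20.8, 49.5 and 73.1%.

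**Figure D2:**
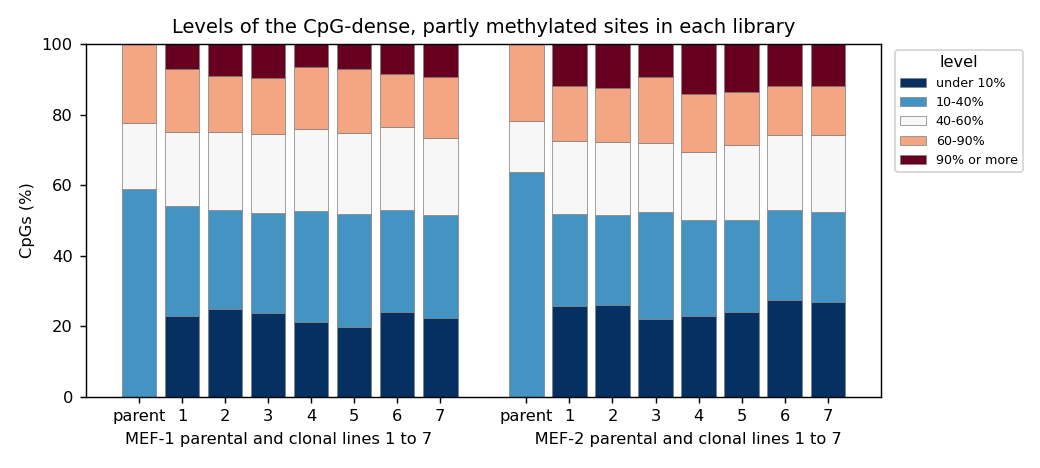
Share of members, in percent, at each methylation level in the parental library and in clonal lines 1 to 7 of each family. By the rule no member is under 10% or at 90% or more in a parent, whereas 22.7% ± 1.72 (SD, n = 7) of members were under 10% and 8.17% ± 1.26 at 90% or more in MEF-1 lines, and 25.0% ± 2.03 and 12.2% ± 1.5 in MEF-2 lines.

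A line derived from 1 cell with 2 alleles would hold a CpG that is stably inherited at about none, 1 or both alleles methylated, so the study called levels of at most 10%, 40 to 60%, and at least 90% faithful. By this measure 54.8% ± 2.74 (SD, n = 7) of members were faithful in MEF-1 lines and 59.2% ± 3.26 in MEF-2 lines. The comparison group is the 221853 CpGs with the same parental rule and a density under 15, called less dense sites. They gave 58.9% ± 3.34 and 59.95% ± 3.06.

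In MEF-1 the members had the lower share in 7 of 7 lines, with a mean gap of -4.14 ± 1.12 points (SD; exact two-sided sign-flip permutation test, p = 0.0156, the smallest that 7 lines allow). In MEF-2 they had the lower share in 6 of 7 lines, with a mean gap of -0.718 ± 0.690 points (exact sign-flip permutation test, p = 0.0312). The families' gaps differed by -3.42 points (exact two-sided permutation test, p = 0.000583, the smallest that 7 against 7 lines allow), but by +0.263 points with wider faithful windows (exact permutation p = 0.463) and by -1.20 points at 10 reads per CpG (exact permutation p = 0.00699). The sign of the gap rested on how sites were counted. With each run of members counted once, the gap was +1.36 points in MEF-1 (exact sign-flip permutation p = 0.0469) and +5.02 in MEF-2 (p = 0.0156). Without the CpGs of high coverage it was +1.23 in MEF-2 (exact permutation p = 0.0156). With every CpG thinned to 10 reads it was -0.545 (exact permutation p = 0.0625) and +0.659 (p = 0.0781), and coverage was lower at members than at less dense sites. No order of members and less dense sites in faithful calls can be read from these values.

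Neighbouring CpGs had like levels more often among members. The closest measured CpG lay within 10 points in 43.7% ± 2.39 (SD, n = 7) of members in MEF-1 lines against 30.2% ± 1.69 of less dense sites, a gap of 13.4 ± 0.810 points with the same sign in 7 of 7 lines (exact sign-flip permutation p = 0.0156). In MEF-2 the shares were 47.9% ± 2.15 and 33.9% ± 1.38, a gap of 14.0 ± 1.14 points (exact sign-flip permutation p = 0.0156). The closest CpG of a member was at a median of 5 bp, and that of a less dense site at 24 bp. Among CpGs whose neighbour lay 2 to 5 bp away, the shares were 46.3% ± 2.60 and 41.9% ± 2.43 in MEF-1, and 50.8% ± 2.37 and 46.5% ± 1.75 in MEF-2. At 21 to 50 bp they were 37.3% ± 3.56 against 26.9% ± 1.39 in MEF-1 and 37.3% ± 1.61 against 30.2% ± 1.42 in MEF-2. Distance thus went with part of the gap, and members remained higher within each distance band. These bands include CpGs of high coverage. Without such CpGs the gap over all distances was 11.8 points in MEF-1 and 12.4 in MEF-2, and the bands were not recomputed.

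Deviations of adjacent CpGs, where each line's departure from its family mean is followed, were less alike among members up to 50 bp. CpGs of high coverage were left out of both groups here, unlike in the neighbour shares above. For pairs 2 to 5 bp apart the correlation of deviations came to 0.256 (MEF-1) and 0.306 (MEF-2) over 11907 points (1701 pairs in 7 lines), against 0.341 and 0.390 over 47404 points for less dense sites. At 21 to 50 bp it was 0.112 and 0.139 for members and 0.120 and 0.150 for less dense sites. Beyond 50 bp members gave 37 pairs or fewer per distance band, and their values lay above those of less dense sites in MEF-2 (0.133 and 0.237 against 0.067 and 0.062) and below them in MEF-1 (-0.036 and -0.001 against 0.056 and 0.047). These correlations are descriptions, since adjacent CpGs are read on the same DNA fragments and lines share their family. Coverage was lower at members, and its part in these values was not tested.

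**Figure D3:**
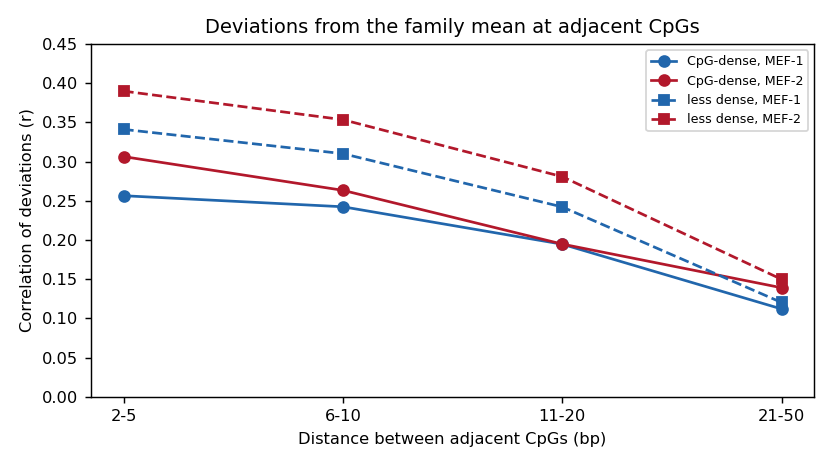
Correlation of the deviations from the family mean between adjacent CpGs, by the distance between them in bp, for members and less dense sites in each family. CpGs of high coverage are left out of both groups. The values for members fall from 0.256 and 0.306 at 2 to 5 bp to 0.112 and 0.139 at 21 to 50 bp, and those for less dense sites from 0.341 and 0.390 to 0.120 and 0.150.

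Single members varied widely between lines of a family. The range over 7 lines had a median of 37.1 points for MEF-1 and of 44.8 for the MEF-2 lines. Beyond read sampling, the variance between lines as a share of the largest possible variance was 0.110 ± 0.010 (jackknife SE over 7 lines) in MEF-1 members and 0.121 ± 0.010 in less dense sites, and in MEF-2 it was 0.169 ± 0.014 and 0.169 ± 0.012. A chi-square test of reads over the 7 lines, with Benjamini-Hochberg adjustment over the table, called 6118 of 11903 members (51.4%) variable in MEF-1, where 29.0% of all CpGs were called. In MEF-2 it called 7954 of 11896 (66.9%), against 38.7% of all CpGs. The corresponding shares were 60.4% and 75.2% at less dense sites and 8.66% and 12.0% at unmethylated dense CpGs. The last group was chosen at low parental levels, so nothing is read from the contrast with it. Among CpGs at which every expected count was 1 or more, where levels near 0 and 100% are fewer, members were called at 61.9% and all CpGs at 62.2% in MEF-1, and at 76.3% and 71.8% in MEF-2, so the excess over all CpGs was not seen in MEF-1 and was small in MEF-2. This test takes each read as a separate molecule, and the counts fell to 16.8% and 33.6% of members at 10 reads per CpG, where 10.6% and 18.9% of all CpGs were called.

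A shared level class across all 7 lines (of 5 classes) was found at 1186 members (9.93%) in MEF-1 and 1261 (10.6%) in MEF-2, against 6.91% and 6.24% of less dense sites. Without members of high coverage the shares were 7.20% and 7.73%, and without repeated sequence as well 6.93% and 7.56%. These lie closer to the shares of less dense sites, which were not filtered in the same way, so no excess is read from them. All 7 lines were under 10% at 422 members (3.53%) in MEF-1 and 486 (4.07%) in MEF-2, and all were at 90% or more at 226 (1.89%) and 247 (2.07%). The shares of less dense sites were 1.86% and 2.66% under 10%, below the members, and 3.49% and 2.49% at 90% or more, above them. A line under 10% and another at 90% or more were found at 160 members (1.34%) in MEF-1 and 465 (3.89%) in MEF-2, against 1.55% and 3.41% of less dense sites. At 1384 members (11.6%) all 14 lines were partly methylated, from 10% to under 90%, against 7.86% of less dense sites. Without CpGs of high coverage the shares were 8.98% of members and 7.68% of less dense sites, so part of the excess went with members of high coverage. Without repeated sequence as well the share of members was 7.77%, but less dense sites were not filtered for repeated sequence.

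Between families, a quasi-binomial model with Benjamini-Hochberg adjustment over all CpGs called 4027 members (33.7%), where 20.2% of all CpGs were called. MEF-1 lines were higher at 1752 of them (43.5%) and MEF-2 lines at 2275, whereas MEF-1 lines were higher at 57.7% of called CpGs of the whole table and 53.8% of called less dense sites. The median size of a called difference was 38.9 points at members and 38.6 points over the table. The share was 36.6% at less dense sites, 1.11% at unmethylated dense CpGs and 2.74% at methylated dense CpGs, both chosen at extreme parental levels. Members in promoters were called at 30.2%, in exons at 33.1%, in introns at 32.3%, between genes at 32.8% and in non-coding genes at 46.8%. The last class stood apart in direction too, with 150 higher in MEF-1 and 562 higher in MEF-2, and it holds the ribosomal DNA described below. In the longest runs there, 193 of 213, 69 of 78 and 51 of 57 members were called, each run being higher in MEF-2. A single repeated locus thus enters these counts many times. Without CpGs of high coverage 31.7% of members were called (all CpGs 20.1%), and the split by direction and by place was not recomputed.

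Members joined into 4397 runs, where members within 200 bp of each other were joined across at most 2 measured non-members in a row. Of these, 2252 held a single member and 634 held 5 or more. The 634 runs contained 5743 members (48.1%), and their levels below are pooled over the reads of their members. By place, 250 of the 634 lay mostly in exons, 193 in promoters, 74 between genes, 68 in non-coding genes and 49 in introns.

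Runs differed between families and lines at shares close to those of runs of less dense sites, which held a median of 6 CpGs against 7 for members. The 2 families did not overlap in 156 runs (24.6%), with MEF-1 higher in 65 and MEF-2 in 91, and the background of 7871 less dense runs made by the same rule was 24.6%. The median range over 7 lines was 19.9 points in MEF-1 and 24.1 in MEF-2, against 19.9 and 24.0 for less dense runs. Ranges of 30 points or more were seen in 94 runs (14.8%) in MEF-1 and 177 (27.9%) in MEF-2, against 14.1% and 28.2%. No run in either family had a line under 10% and another at 90% or more, unlike single CpGs. The parent lay inside the range of its lines in 505 runs of MEF-1 and 466 of MEF-2, below all lines in 92 and 134, and above all lines in 37 and 34, counts that the bounds on the parental levels also enter.

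The longest runs lay on chromosome 17 in Gm26917 and AY036118, non-coding annotations that overlap an assembled copy of the ribosomal RNA transcription unit, which is present in many copies in the genome. The run at chr17:39843693-39845663 held 213 members at a mean coverage of 1112 reads. Its level was 17.3 to 20.2% (median 19.1%) in MEF-1 lines and 25.6 to 27.5% (median 26.7%) in MEF-2 lines, with parents at 17% and 24.7%. All MEF-2 lines lay above all MEF-1 lines (MEF-1 minus MEF-2, -7.78 points), and 193 of the 213 members were called.

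The next run of Gm26917 (78 members) stood at 15.8 to 18.9% and 23.9 to 26.6%, and that of AY036118 at chr17:39848295-39848819 (57 members) at 13.4 to 16.4% and 20.3 to 22.4%. Ribosomal DNA thus had the narrowest spread of lines among the 10 longest runs, and a family difference of similar size throughout. Reads of many copies are summed there, so the copies cannot be told apart. Of the 634 runs, 15 had a mean coverage above 160 reads, and without them the families did not overlap in 147 of 619.

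Among the other high-coverage runs, the Sfi1 promoter run (6 members) stood at 85.3 to 87.4% in MEF-1 lines and 83.9 to 85.5% in MEF-2 lines. The run over Gm44341 and the histone gene Hist1h2al (17 members) stood at 65.0 to 75.7% in MEF-1 and 14.1 to 34.2% in MEF-2, and Gm26630 (5 members) at 21.2 to 41.2% and 67.4 to 80.8%. The families were far apart at both, in opposite directions, and 79.8% and 99.5% of their sequence words are repeated elsewhere. In the 6 others outside ribosomal DNA and the Gm13135 locus, at Fcgr3, Gm10060 (2 runs), Gm21769, 6820431F20Rik and Ppp4r1l-ps, lines lay between 9.33 and 63.97%.

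A cluster of related sequences on chromosome 4 held the next longest runs, at Gm13034 (47 members), Gm13135 (45) and Gm13136 (43). Of the 322 words of 32 bases in the Gm13136 run, 31.4% also occur in that of Gm13135 and 15.2% in that of Gm13034, so reads may not be assigned to a single copy. Gm13034 stood at 54.3 to 66.0% in MEF-1 and 48.4 to 69.6% in MEF-2, and Gm13136 at 43.4 to 59.4% and 40.7 to 59.0%, with both families overlapping. At Gm13135, chr4:147275570-147276107, MEF-1 lines were at 51.1 to 57.4% (median 55.1%) and MEF-2 lines at 59.9 to 68.9% (median 66.8%) with no overlap. A second run at the same locus with high coverage (25 members) did overlap, at 70.6 to 75.8% and 68.5 to 75.2%. Line 7 of MEF-1 was the highest of its family at Gm13034, Gm13136 and the first of the Gm13135 runs, but not at the second. The pseudogene Ppp1r2-ps4 (29 members), also repeated elsewhere, stood at 45.9 to 54.5% and 43.7 to 58.1%.

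Isyna1, which encodes the enzyme that makes inositol phosphate from glucose phosphate, had the most members of any protein-coding promoter, 32 of its 92 measured CpGs, in 1 run at chr8:70594481-70594863. In MEF-1 the parent stood at 40.9% (95% Wilson interval 37.1 to 44.8) and the lines at 30.1 to 54.5% (median 40.04%). In MEF-2 the parent stood at 19.2% (16.4 to 22.3) and the lines at 1.88 to 6.29% (median 3.2%). All MEF-2 lines lay below all MEF-1 lines. They also lay below their parent, but only CpGs read at 10% or more in that parent are members, so the parental value is in part set by the rule. The mean difference between families was 39.5 points. Of its members, 28 of 32 were called (smallest adjusted p = 6.52e-06, quasi-binomial model).

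The remaining promoters with the most members differed less. The promoter of Dnase2a, a lysosomal DNase (27 members of 109 measured CpGs), stood at 39.3 to 48.2% in MEF-1 and 20.9 to 42.9% in MEF-2, and 9 of its members were called. Marc1, a mitochondrial reductase (24 of 48), stood at 48.7 to 68.6% and 52.6 to 79.0%, with 20 of its members variable in MEF-1 and 17 in MEF-2. Fcgr3, an Fc receptor of immune cells (24 of 152), stood at 17.5 to 22.5% and 17.4 to 25.9%, with 88.9% of its words repeated elsewhere. The other 5 promoters among the top 9 (Zrsr1, Commd1, Mcts2, Plagl1 and Sgce) are imprinted. The 29 members of the Commd1 promoter lie within the stretch of the Zrsr1 promoter, so these entries are the same locus. Across the genome, 1333 of 13737 measured promoters held a member and 284 held 5 or more. In 70 of the 284 the families did not overlap, 34 with MEF-1 higher and 36 with MEF-2 higher, a count to be read beside the 24.6% of less dense runs, and in 11 at least 50% of the measured CpGs were members.

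**Figure D4:**
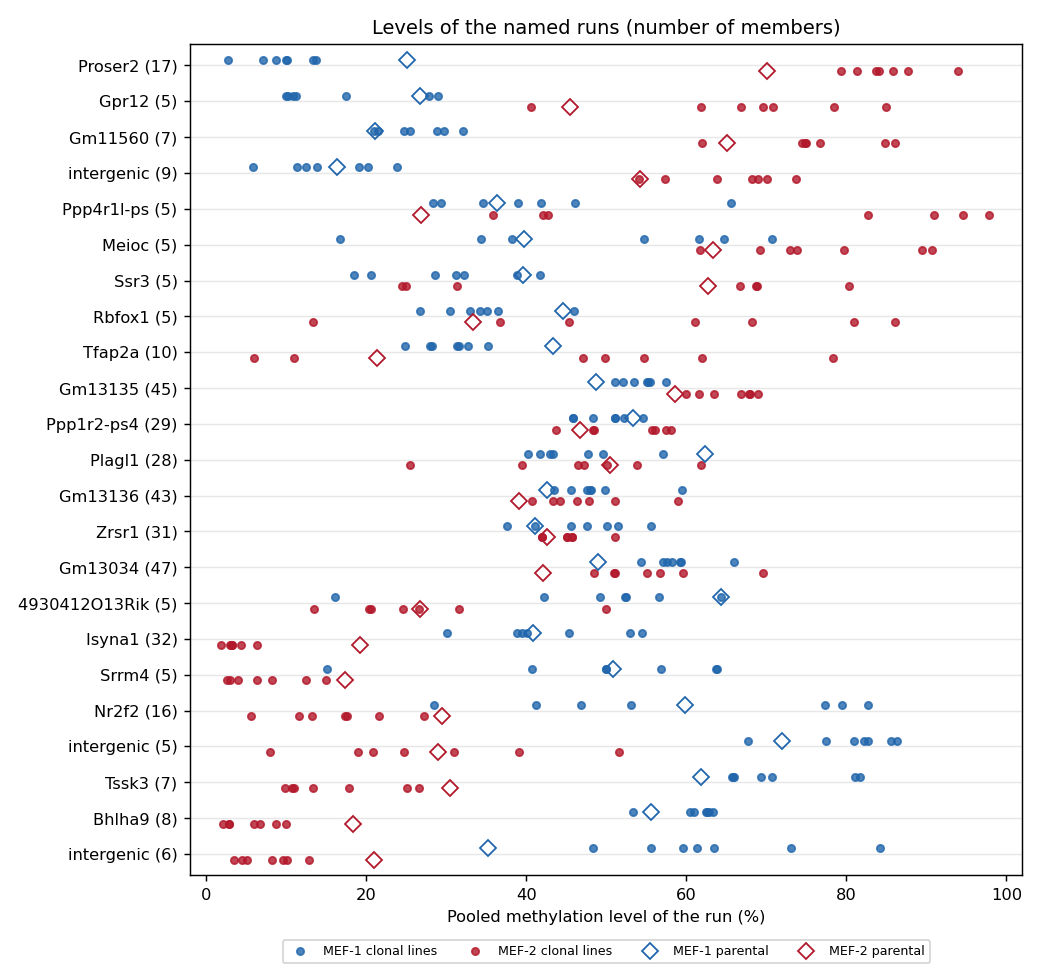
Pooled methylation level, in percent, of the named runs in each parental library and each clonal line, with the number of members in brackets. At Proser2 and Bhlha9 the families are far apart, at Nr2f2 the MEF-1 lines spread from 28.5 to 82.7%, at Tfap2a the MEF-2 lines spread from 5.96 to 78.3%, and at Plagl1 both families overlap.

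The runs in the next paragraphs were selected on the levels of the clonal lines, for the largest differences between families and the widest ranges within them, and are given as descriptions without a test. Proser2 had the largest difference, at chr2:6100359-6100566 in an exon (17 members). MEF-1 lines stood at 2.71 to 13.7% (median 10.0%) and MEF-2 lines at 79.3 to 94.0% (median 84.0%), with parents at 25.1% (95% Wilson interval 21.6 to 29.0) and 70.05% (66.4 to 73.5). In both families all lines lay beyond their parent, MEF-1 lines below and MEF-2 lines above, in the directions in which the rule bounds the parents.

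Gpr12, an orphan G protein-coupled receptor (5 promoter members), stood at 10.0 to 29.0% in MEF-1 and 40.6 to 84.9% in MEF-2, and the non-coding gene Gm11560 (7 members, 20.6% of words repeated elsewhere) at 21 to 32.1% and 62.0 to 86.0%. A run between genes at chr13:66807797-66807924 (9 members), of which 66.0% of words are repeated elsewhere, stood at 5.85 to 23.8% and 54.0 to 73.7%. All of these were higher in MEF-2.

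In the other direction, Bhlha9, a basic helix-loop-helix factor of limb development, held 8 exon members at chr11:76673009-76673085. MEF-1 lines stood at 53.4 to 63.3% (median 62.4%) and MEF-2 lines at 2.13 to 10.0% (median 6.00%), with parents at 55.6% and 18.3%. The lines of each family were thus close together and far from the other family. The promoter run of Tssk3, a kinase of the testis (7 members), stood at 65.7 to 81.8% and 9.88 to 26.6%. Runs between genes at chr2:172825086-172825099 (6 members) and chr5:111957766-111957839 (5 members) stood at 48.3 to 84.2% against 3.47 to 12.8%, and at 67.7 to 86.4% against 7.95 to 51.6%.

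The widest range of MEF-1 lines was at Nr2f2, a nuclear receptor of mesoderm and vessel development, at chr7:70357805-70358085, where 10 of 16 members lie in a promoter. Lines 1 to 7 stood at 79.5, 53.0, 46.8, 82.7, 77.3, 28.5 and 41.2%, with the parent at 59.8% (95% Wilson interval 54.9 to 64.5). Lines 1, 4 and 5 were the highest, and these are the lines that were closest to each other over all members. Relative coverage of chromosome 7 in lines 1 to 7 was 0.832, 0.945, 0.816, 0.980, 1.03, 0.899 and 0.841, and its part in this range was not tested. MEF-2 lines were lower, at 5.58 to 27.2%. Ranges of the next 3 runs were 54.1 points at Meioc, a regulator of meiosis (16.7 to 70.8%), 48.7 points at Srrm4, a neuronal splicing factor (15.2 to 63.9%), and 48.2 points in a promoter of 4930412O13Rik that overlaps the body of Gata3, a transcription factor (16.1 to 64.3%).

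In MEF-2 the widest ranges were at Rbfox1, a neuronal splicing factor (5 members, 13.4 to 86.1%), and at Tfap2a, a transcription factor of neural crest and skin. The Tfap2a run at chr13:40728275-40728440 lies in an exon and holds 10 members. MEF-2 lines 1 to 7 stood at 5.96, 78.3, 47.1, 62.0, 49.8, 11 and 54.7%, with the parent at 21.4% (95% Wilson interval 16.1 to 27.7). Lines 1 and 6 lay below the parent and the other 5 above it, whereas MEF-1 lines stayed at 24.8 to 35.2%. The first run of the pseudogene Ppp4r1l-ps (5 members) stood at 35.8 to 97.9% and the promoter of Ssr3, a subunit of the translocon-associated complex (5 members), of which 52.8% of words are repeated elsewhere, at 24.4 to 80.4%. Coverage was 17.8 reads per CpG at Tfap2a and 17.6 at Rbfox1, below the median of the table.

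Of the gene lists examined, imprinted genes held members at the largest share of their dense CpGs. Of 39 genes on a list of imprinted genes, 30 held members, and 283 of their 636 dense CpGs (44.5%) were members, against 6.21% of all dense CpGs. The rule left out CpGs at 40 to 60% in both parents, so the most balanced imprinted CpGs are not among them. In the lines 51.8% of levels at these members were at 40 to 60%, against 22.4% over all members. Between families 22 of 283 (7.77%) were called, 11 in each direction, against 33.7% of all members. Variable calls were 23.0% in both MEF-1 and MEF-2, against 51.4% and 66.9%.

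In none of the 17 runs in imprinted genes (226 members) were the families apart, while 24.4% of the 602 other runs without high coverage were. Line levels from 30 to 70% made up 84.0% of run levels in MEF-1 and 89.1% in MEF-2, against 66.9% and 58.9% of the other runs. The range between lines was no narrower, with a median of 30.9 points in MEF-1 and 27.6 in MEF-2 against 19.9 and 24.2. Reads that span several CpGs of a run are not independent, and their part in these ranges was not tested. Relative coverage of whole chromosomes also differed between lines. On chromosome 2 it was 0.784 in MEF-2 line 3, the highest MEF-2 line at Mcts2 and over all Gnas members pooled. That line was not the highest in each single Gnas run. On chromosome 10 it was 1.145 in MEF-2 line 4, the highest MEF-2 line at Plagl1. On chromosome 11 it was 1.00 in MEF-1 line 3, the highest MEF-1 line at Grb10. The part of coverage in these ranges was not tested either.

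At Plagl1, a zinc finger factor expressed from the paternal allele, the promoter run at chr10:13090852-13091104 (28 members) stood at 40.2 to 57.1% (median 43.3%) in MEF-1 lines and 25.5 to 61.8% (median 47.2%) in MEF-2 lines. The parents stood at 62.4% and 50.4%, none of the 28 members was called between families, and none was variable in MEF-1, while 6 were variable in MEF-2. Zrsr1, a retrogene within an intron of Commd1, held 31 members at chr11:22972337-22972810, at 37.6 to 55.6% and 42.0 to 51.1%, with parents at 41.1% and 42.6%. Mcts2, a retrogene within H13 (29 members), stood at 38.0 to 62.8% and 45.5 to 72.0%, and the Sgce promoter (24 members), up to 53.4% in MEF-1 with a median of 48.9%, and at 38.9 to 57.5%. Gnas held the most members of the list, 52 of which 21 lie in promoters. Pooled over chr2:174284749-174329214 they stood at 25.8 to 51.5% and 36.3 to 57.3%, and none was called. Some single runs there spread further. The run at chr2:174284749-174284866 stood at 22.6 to 68.9% and 36.4 to 63.2%, and that at chr2:174299808-174300052 at 19.6 to 57.7% and 25.1 to 58.2%. At Grb10, a growth inhibitor (7 members, 1 called), MEF-1 lines stood at 51 to 81.9%, all above their parent at 38.4%. MEF-2 lines stood at 25.9 to 70%, on both sides of their parent at 45.1%, and the families overlapped. Mean coverage of this run was 18.7 reads.

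**Figure D5:**
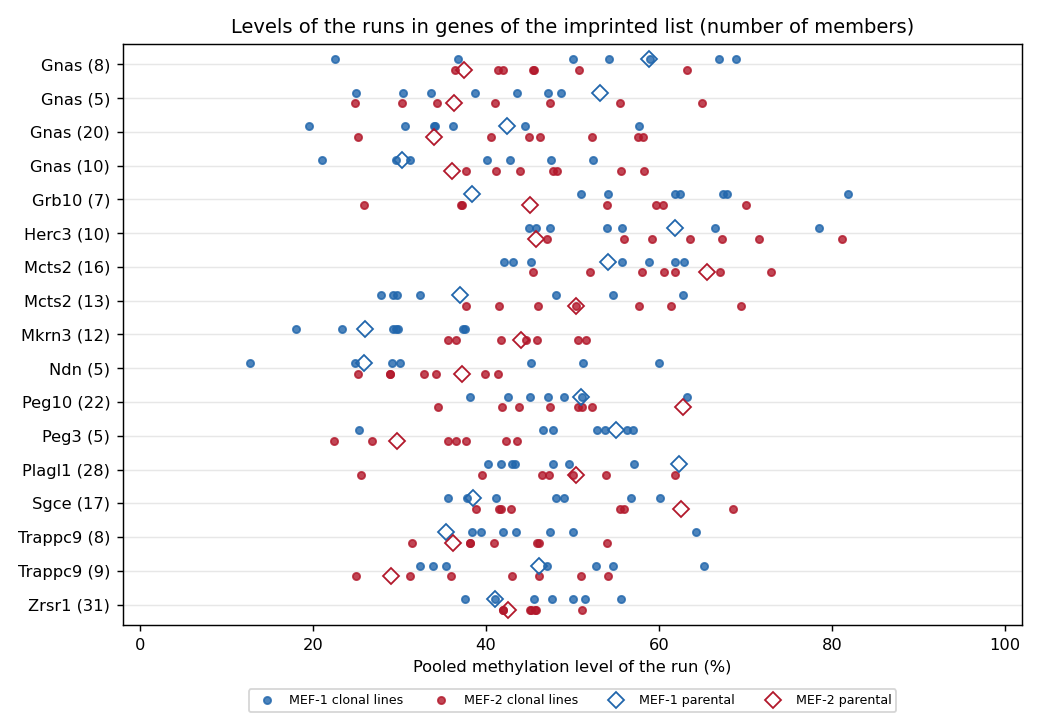
Pooled methylation level, in percent, of the 17 runs in imprinted genes in each parental library and each clonal line, with the number of members in brackets. In MEF-1 84.0% and in MEF-2 89.1% of the line levels lie from 30 to 70%, and the families overlap in every run.

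The word TGCCGC, the core letters of the motif of the zinc finger protein ZFP57 that binds methylated imprinted regions, was searched on both strands of 300 bp windows around the runs. It was in 8 of the 17 imprinted runs (47.1%), in 31.6% of the other 617 runs of members and in 25.8% of 8627 runs of unmethylated dense CpGs. Of the stretches printed above, that of Plagl1 holds it at 2 places and those of Bhlha9, Tfap2a, Nr2f2 and Gm13136, which are not imprinted runs, at 1 place each. A match describes letters only, and no binding was measured.

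Hox genes and developmental transcription factors held members at more than the average share of dense CpGs, and these were called at a share close to that of all members. Of 43 Hox genes 32 held members, 145 in all (15.3% of their dense CpGs), of which 49 (33.8%) were called, 24 higher in MEF-1 and 25 in MEF-2. At Hoxd3 (29 members) MEF-1 lines stood at 13.9 to 23.5% and MEF-2 lines at 27.4 to 40.3% with no overlap. At Hoxa7 (10 members, 2 called) the order was the other way, with 28.8 to 49.0% against 8.72 to 24.7%. Hoxd11 (13 members) overlapped, at 35.3 to 52.1% and 33.2 to 51.8%.

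Of 138 developmental transcription factors 78 held members, 523 in all (11.8% of their dense CpGs), of which 173 (33.1%) were called, 75 higher in MEF-1 and 98 in MEF-2. Irx2, a homeobox factor (21 members), stood at 67.4 to 82.8% in MEF-1 and 89.4 to 96.7% in MEF-2, with the MEF-2 parent, which the rule holds under 90% at each member, at 72.7%. Pooled over chr2:9877314-9882947, Gata3 (18 members, 6 called) stood at 48.6 to 64.5% and 31.8 to 43.1% without overlap. This stretch takes in the run given above under 4930412O13Rik, where the families did overlap. Sox21 (28 members), Six2 (24) and Tbx1 (18) overlapped between families. At Sox21, for example, the ranges were 32.3 to 38.8% and 21 to 39.9%. Germline genes held 18 members in 6 of 26 measured genes, 10.8% of their 166 dense CpGs, of which 10 were at Hsf5, a testis factor of the heat shock family. Hsf5 stood at 7.53 to 21.3% and 18.3 to 35.3%, and Stag3, a meiotic cohesin subunit (3 members), at 4.62 to 15.4% and 1.75 to 49.0%.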

How the data were processed

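DNA methylation was measured by tcBS-seq in 2 parental and 14 clonal libraries of mouse embryonic fibroblasts. The authors trimmed reads with Trim Galore 0.6.0, aligned them to mm10 with Bismark and deposited, for each CpG, counts of methylated and unmethylated reads per library, together with the number of CpGs within 100 bp. Removal of PCR duplicates is not mentioned in the sources used here, so reads may not be separate molecules, and 95% Wilson intervals cover counting error only. CpGs were kept by the authors in the table with at least 10 reads.

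The level of a CpG was computed here as 100 times methylated over all reads, and the level of a run or promoter from the summed reads of its members. Families were compared per CpG by a quasi-binomial logistic model over all 1203687 CpGs, with the Pearson dispersion held at 1 or more, and lines within a family by a chi-square test, both with Benjamini-Hochberg adjustment over the whole table and an adjusted p under 0.05 as the call. Values per line were compared by exact two-sided permutation tests, with the line as the replicate, since each line was grown from a separate single cell. Each family is a single culture from a single embryo, so these tests do not replicate a difference between families. Group labels came from sample titles. The model and tests were tested on simulated data. Gene annotation, sequences and counts of 32-base words used GRCm38.p6, with Python 3.11.15, numpy 2.4.6, scipy 1.17.1 and pandas 2.3.3.

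Runs were named by a rule: the 10 with the most members, the 8 promoters with the most members (9 because of ties), the 4 with the widest range in each family, the 4 with the largest family difference in each direction, runs of high coverage, and listed genes with at least 3 members. The 2 intergenic runs on chromosomes 2 and 5 and that on chromosome 13 are given by position. The members, gene lists and rules were chosen with earlier results of these data known. Alternatives covered read depth, coverage, density, faithful windows, parental weighting, chromosomes, lines left out, a replicate block and other models, and those on repeated sequence, on single named runs, and on high coverage at members partly methylated in all lines were added after seeing the data.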

Additional observations from a re-analysis of the deposited data

Results flagged for a closer look

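In 108 groups of 7 lines, a line at the edge stood further from the others than Dixon's 95% criterion allows in 6, where chance gives about 1 in 20 groups. In the share of faithful calls, line 2 of MEF-1 had the largest gap between members and less dense sites, at -6.40 points. Line 3 of MEF-2 had the lowest share of faithful members in its family, at 52.4%. Line 6 of MEF-1 was the lowest of its family at Bhlha9, at 53.4%. Line 7 of MEF-1 was the highest of its family at Gm13034, at 66.0%, and at Gm13136, at 59.4%, which share sequence. Line 7 of MEF-2 was the highest of its family at Zrsr1, at 51.1%.

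The gap in faithful calls between members and less dense sites differed between the families by -3.42 points (exact two-sided permutation test of 7 against 7 lines, p = 0.000583). It was +0.263 points with faithful windows widened to 0 to 20, 30 to 70 and 80 to 100%.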

How the results depend on the processing

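The gap in faithful calls (-4.14 points in MEF-1, -0.718 in MEF-2) changed sign with several choices. In MEF-1 it was +1.36 with each run counted once and +1.32 without the 40 to 60% window, and no longer past the threshold at 10 reads (-0.545) or without lines 1, 4 and 5 (-4.51, where 4 lines allow no p below 0.125). In MEF-2 it was +0.659 at 10 reads, +1.23 without high coverage, +5.02 with each run once, +0.677 on chromosomes 3, 4, 6 and 9, +2.44 without the 40 to 60% window, and +0.782 without repeated sequence (added once the data had been seen). The difference of the gaps was +0.263 with wider windows (exact permutation p = 0.463). With each run of members counted once, less dense sites were still counted singly. The cause of these changes was not tested. At 20 reads or more in all libraries the gaps were -10.3 and -6.69, at a density of 20 or more -7.39 and -3.47, and weighted to the members' parental levels -4.94 and -2.83. The mean level difference (-1.63) was -1.22 on chromosomes 3, 4, 6 and 9, -1.08 with each run once and -2.72 at 20 reads or more, and the neighbour gap of MEF-1 was 14.0 without lines 1, 4 and 5 (exact permutation p = 0.125). Variable calls fell to 16.8% (1977) and 33.6% (3947) at 10 reads (all CpGs 10.6% and 18.9%), and to 34.6% (4079) in MEF-1 without lines 1, 4 and 5 (all CpGs 19.8%). With fewer CpGs tested, family calls were 1561 of 3864 (40.4%, all CpGs 23.2%) at 20 reads or more and 1560 of 4459 (35.0%, all CpGs 20.2%) at a density of 20 or more. Leaving out 1 line at a time gave -4.29 to -3.76 and -0.866 to -0.524 for the faithful gaps (in MEF-2 exact permutation p = 0.0625 without line 1, 3, 4, 5, 6 or 7), -3.61 to -3.04 for their difference, -1.87 to -1.32 for the mean level, 30.4 to 32.4% for family calls, and 43.7 to 48.0% and 60.9 to 63.6% for variable calls. For the 26 named runs other than those named for high coverage alone, 427 values moved by less than the larger SD between lines of a family, and 3 by more, namely AY036118 at 10 reads (-8.17), Proser2 at 20 reads or more (-85.1) and Gm13136 at 20 reads or more (16.7). Leaving out lines cannot move a family mean by as much as that SD. Most of the 427 values could therefore not fail, and only those at 10 reads and at 20 reads or more are informative. Line numbers name separate cells: deviations of same-numbered lines correlated at -0.009 to 0.016, so the numbers do not pair. With the line number as a replicate block the mean level difference was -1.63 (exact permutation p = 0.0312), and an arcsine model called 34.2% of members (all CpGs 19.7%), or 26.6% with the replicate block (all CpGs 15.5%).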
